A study of Mus musculus with 26 samples.

Results

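The circadian clock genes described here are 10 genes of the core molecular clock and its output, namely Arntl, Clock, Per1, Per2, Per3, Cry1, Cry2, Nr1d1, Nr1d2 and Dbp. They were found by gene symbol, 10 of 53465 rows in the table of regenerating muscle and 10 of 55487 rows in the table of C2C12 cells, and all 10 passed the filter on low values in both tables. Muscle libraries came from the tibialis anterior (TA) of C57BL/6J mice of 6 weeks, male by the methods, taken on day 0 and 1, 3, 5 and 10 days after the muscle was injured with cardiotoxin (CTX), a venom protein that kills fibres, with 2 libraries per day. Saline is named as the control of the injection, so whether day 0 was untouched or saline-treated muscle is not settled. Cell libraries came from C2C12, a mouse myoblast line, as a control line (Ctrl), whose construct is not described in the sources used here, and a stable line selected with puromycin that carried the repressor dCas9-KRAB with guides against the promoter of the m6A methyltransferase gene Mettl3 (Cas9M3, called knockdown here although the labels speak of a knockout). Each line was sequenced in growth medium with 10% fetal bovine serum (GM) and on day 3 in differentiation medium with 2% horse serum (DM3), in 2 libraries per group, 8 in total. The labels do not say whether the 2 libraries of a group came from separate animals or cultures, and neither they nor the methods give the clock time at which a sample was taken.

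The clock is a feedback loop of transcription. The proteins of Arntl (BMAL1) and Clock bind E-box sequences as a pair and switch on the Per and Cry genes, the nuclear receptor genes Nr1d1 and Nr1d2 (REV-ERB alpha and beta) and the output gene Dbp. PER and CRY proteins then repress that pair, while the REV-ERBs repress Arntl and Clock, so that over a day Arntl RNA runs roughly opposite to Dbp and Nr1d1 RNA. Skeletal muscle holds a clock of its own, and in cultured cells serum and glucocorticoids are known to reset its phase.

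The sequence elements of this loop are shown first. The members are grouped below by their role in the loop, not by these elements. RefSeq windows of 250 bases before and 50 bases after a start site (GRCm38.p6) were at hand for 9 of the 10 genes and 13 start sites, with no entry for Per2. Both strands were searched for the E-box CACGTG, the E-box variant CACGTT, which reads AACGTG on the other strand, the D-boxes TTATGTAA and TTACGTAA bound by DBP, the sites TAGGTCA or TGGGTCA for REV-ERB and ROR receptors, and the cyclic AMP element TGACGTCA. No searched motif overlapped another in the runs printed here. The runs hold the matches before the start site in capitals with 20 bases on either side, 5′ to 3′ on the strand of the gene.
Per1: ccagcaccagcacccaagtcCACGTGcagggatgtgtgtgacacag
Cry1: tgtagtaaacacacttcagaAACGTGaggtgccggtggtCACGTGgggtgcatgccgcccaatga
Cry2: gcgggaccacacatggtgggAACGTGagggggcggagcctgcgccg
Nr1d1: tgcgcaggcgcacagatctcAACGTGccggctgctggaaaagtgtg
Per3: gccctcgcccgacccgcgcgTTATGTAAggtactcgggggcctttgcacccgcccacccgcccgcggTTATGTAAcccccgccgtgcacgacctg
The Per1 run is chr11:69098763-69098808 on the plus strand, in an intron of Per1 in GENCODE M21 because that annotation has an earlier start. The Cry1 run is chr10:85185089-85185153, the Cry2 run chr2:92434210-92434255 and the Nr1d1 run chr11:98775380-98775425, all on the minus strand and between genes. The Per3 run is chr4:151044796-151044890 on the minus strand, in an intron of Camta1, whose gene spans this site.

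Cry1 and Per1 each held the E-box, which 8.09% of 27025 genes held in a window of the same length. Cry1, Cry2 and Nr1d1 held the variant, against 5.44% of genes. Per3 held the D-box TTATGTAA in 2 places, at -205 and -158 from its start, where 1.23% of genes held a D-box. Arntl held TAGGTCA at +31 of its second start site, against 7.35% of genes, and no member held the cyclic AMP element, which 2.03% of genes held. No searched motif was matched in the windows of Clock, Nr1d2 or Dbp. These matches describe the letters of short windows only.

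The muscle libraries held 14170000 to 18820000 reads on genes and the cell libraries 14230000 to 29570000, as read from the steps of the low FPKM values. In the cell table every replicate 2 library was shallower than every replicate 1 library, with at most 18900000 against at least 25170000 reads. Members rested on 31 reads (the lowest, Per2) to 1831 reads (the highest, Nr1d1) in muscle and on 81 (Arntl) to 4122 reads (Clock) in cells. The summed FPKM of 9 fibre genes marked every muscle library as muscle, at 15620 to 80190, and 7 leukocyte genes summed to 37.5 and 75.0 on day 0 and to 1224 and 1227 on day 3. Xist was at 5.77 FPKM or above in both day 0 libraries, both day 10 libraries and replicate 2 of day 3, and at 0.152 or below in the other 5. The Y-linked gene Ddx3y ran the other way, at 0.101 FPKM or below in the first 5 and at 6.10 or above in the other 5, so that 5 of the 10 libraries go against the male mice the methods name. Mettl3 was at 4.70 and 5.65 FPKM in Ctrl GM and at 0.331 and 0.118 in Cas9M3 GM, and at 4.68 and 5.15 against 0.148 and 0.0805 on DM3. In C2C12 the satellite cell marker Pax7 was listed at 0 in at least 1 library of Ctrl GM, Cas9M3 GM and Cas9M3 DM3.

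Throughout, levels are FPKM (fragments scaled to gene length and library size, so that genes can be compared per length), and differences are on the log2 scale of FPKM plus 0.1, from limma with all groups of a table in 1 fit. A gene was called at a Benjamini-Hochberg adjusted p of at most 0.05 over all genes tested, 16753 in muscle and 13824 in cells. Exact permutation of 2 against 2 libraries cannot give a two-sided p below 0.333, so every p below rests on the limma model and measures the spread between these libraries.

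During regeneration, 9 of the 10 clock genes differed between the 5 days in the F test of limma, all but Per1 (adjusted p 0.585). Over all genes the share called was 43.0%. The 9 members had adjusted p from 0.0084 (Nr1d2) to 0.0485 (Cry2), and the size and day of their change differed between genes. The clearest low point was day 3 for Nr1d1, Nr1d2 and Cry1. Per3 also had its lowest mean on day 3, but a day 10 library (0.848 FPKM) lay between those of day 3. Arntl and Clock were lowest on day 5, the day on which Per3, Cry2 and Dbp were highest. Without replicate 2 of day 3 only 3 members were called, and 5 were called without replicate 1 of day 3 or without either library of day 5. With Xist expression (libraries at 1 FPKM or above) as a term in the fit, 2 were called. Only day 3 holds libraries of both kinds, so that term is set by the gap between its 2 libraries. The share of all genes called was not taken in these alternative fits. Since the hour of collection is not given, the day after injury and the time of day cannot be told apart in any comparison of days. The Xist and Ddx3y split likewise cannot be told apart from the day in day 1 or day 5 against day 0, where it separates all libraries of the 2 days.

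**Figure D1:**
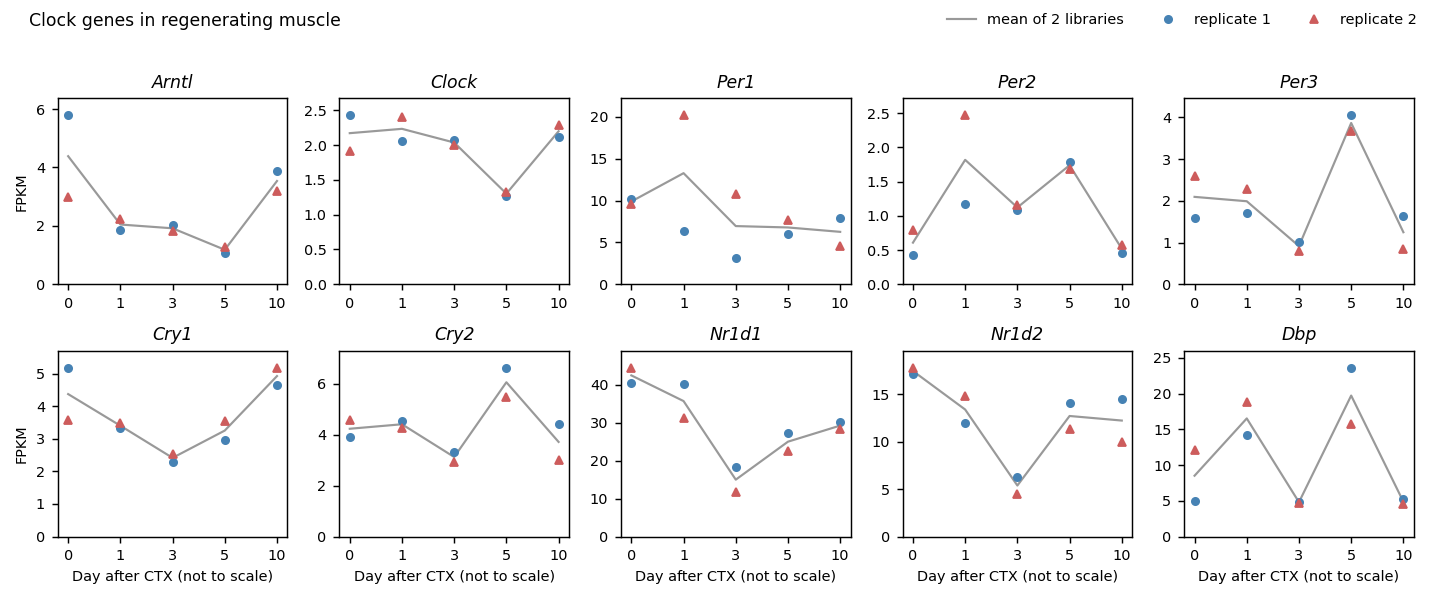
FPKM of the 10 clock genes (vertical axes, starting at 0) on days 0, 1, 3, 5 and 10 after CTX (horizontal axes, days not to scale). Circles are replicate 1, triangles replicate 2 and the line joins the means of the 2 libraries; Nr1d1 and Nr1d2 dip on day 3, Per3 and Dbp peak on day 5, and the 2 libraries of Per1 lie far apart on days 1 and 3.

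Among the activators, Arntl (chr7:113207465-113314126, plus strand) was at 5.78 and 2.99 FPKM on day 0, at 1.85 and 2.25 on day 1, at 2.02 and 1.81 on day 3, at 1.08 and 1.28 on day 5, then at 3.86 and 3.21 on day 10. Every library of days 1, 3 and 5 was below both day 0 libraries, and both day 10 libraries were between the 2 of day 0. Clock (chr5:76209868-76304792, minus strand), the partner of BMAL1, was at 2.43 and 1.91 FPKM on day 0, 2.07 and 2.40 on day 1, 2.07 and 2.01 on day 3, 1.27 and 1.33 on day 5, then 2.11 and 2.29 on day 10. Both libraries of day 5 were below all 8 others, and the residual SD of Clock, 0.129 on the log2 scale, was below the median of all genes, 0.265.

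The REV-ERB genes fell together on day 3. Nr1d1 (chr11:98767932-98775333, minus strand) was at 40.4 and 44.6 FPKM on day 0, 40.2 and 31.3 on day 1, 18.4 and 11.6 on day 3, 27.4 and 22.7 on day 5, then 30.2 and 28.4 on day 10, the highest FPKM of the 10 genes in all 10 libraries. Nr1d2 (chr14:18204054-18239127, minus strand) was at 17.1 and 17.8 FPKM on day 0, 11.9 and 14.9 on day 1, 6.28 and 4.48 on day 3, 14.1 and 11.3 on day 5, then 14.5 and 9.94 on day 10. For both genes the 2 libraries of day 3 were below all 8 others. Of the exon bases of Nr1d1, 8.55% lie opposite exons of Thra, a thyroid hormone receptor gene, and whether the counting used strand is not stated.

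The Period genes, repressors of the loop, did not share a course. Per1 (chr11:69095217-69109960, plus strand) was at 10.2 and 9.56 FPKM on day 0, 6.37 and 20.2 on day 1, 3.13 and 10.8 on day 3, 5.96 and 7.63 on day 5, then 7.95 and 4.59 on day 10. Replicate 1 minus replicate 2 was -1.65 (day 1) and -1.75 (day 3) on the log2 scale, in size at or above the gap of 94.5% and 96.9% of genes tested. Per2 (chr1:91415982-91459324, minus strand) was at 0.425 and 0.793 FPKM on day 0, 1.17 and 2.47 on day 1, 1.08 and 1.16 on day 3, 1.79 and 1.69 on day 5, then 0.460 and 0.579 on day 10. Every Per2 value of days 1, 3 and 5 was above every value of days 0 and 10.

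Per3 (chr4:151003652-151044665, minus strand), a Period gene with a lesser role in the loop, was at 1.60 and 2.60 FPKM on day 0, 1.71 and 2.27 on day 1, 1.02 and 0.808 on day 3, 4.05 and 3.68 on day 5, then 1.65 and 0.848 on day 10. Its highest libraries were the 2 of day 5. The output gene Dbp (chr7:45705088-45710203, plus strand), a transcription factor that binds D-boxes such as the 2 printed for Per3, was at 4.96 and 12.1 FPKM on day 0, 14.2 and 18.8 on day 1, 4.89 and 4.72 on day 3, 23.6 and 15.8 on day 5, then 5.21 and 4.53 on day 10. Dbp was thus high on days 1 and 5 and low on days 3 and 10, and the 2 libraries of day 0 stood apart. Of the exon bases of Dbp, 18% lie opposite exons of Sphk2, a sphingosine kinase gene.

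Of the Cryptochromes, which repress BMAL1 and CLOCK with the PER proteins, Cry1 (chr10:85131700-85185064, minus strand) was at 5.17 and 3.59 FPKM on day 0, 3.32 and 3.49 on day 1, 2.29 and 2.55 on day 3, 2.98 and 3.54 on day 5, then 4.67 and 5.19 on day 10. Cry2 (chr2:92403646-92434043, minus strand) was at 3.91 and 4.56 FPKM on day 0, 4.55 and 4.28 on day 1, 3.33 and 2.93 on day 3, 6.64 and 5.49 on day 5, then 4.43 and 3.01 on day 10. Both were low on day 3, but Cry1 was high on days 0 and 10 and Cry2 on day 5. Of the exon bases of Cry2, 4.67% lie opposite exons of D930015M05Rik.

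Day 1 was compared with day 0 to ask what had changed soon after the injury. No member was called (0 of 10, where the share over all genes was 6.00%), at an unadjusted p of 0.05 or below for Arntl, Per2 and Dbp only. The log2 difference of day 1 from day 0 was 1.40 ± 0.38 (SE) for Per2 (adjusted p 0.0678, limma), 1.07 ± 0.39 for Dbp (adjusted p 0.131) and -0.995 ± 0.29 for Arntl (adjusted p 0.0853). For these 3 genes, and for Cry1, Nr1d1 and Nr1d2, the libraries of the 2 days did not overlap, 6 of 10 members where 52.4% of all genes did not overlap. The median over the 10 members was -0.00053 on the log2 scale, and no alternative and no left-out library gave a call.

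On day 3, 5 of 10 members were lower than on day 0 and 0 were higher, where 48.8% of all genes were called and 24.3% were called lower. Nr1d2 fell by 1.70 ± 0.24 (SE) on the log2 scale (adjusted p 0.00125, limma) and Nr1d1 by 1.53 ± 0.23 (adjusted p 0.00157). Per3 fell by 1.08 ± 0.34 (adjusted p 0.0321), Arntl by 1.08 ± 0.29 (adjusted p 0.0183) and Cry1 by 0.81 ± 0.20 (adjusted p 0.0111). Of the other 5, Cry2 (-0.43), Dbp (-0.68) and Per1 (-0.75) had lower means, Clock hardly differed (-0.08) and Per2 had a higher mean (0.84), and none passed the test. The median over the 10 members was -0.78 and that over all genes 0.01. The summed FPKM of the 9 fibre genes was 64970 and 58560 on day 0 and 19580 and 15620 on day 3, and that of 4 myocyte genes was 12.5 and 24.4 against 871 and 1289. The part of this change in the makeup of the tissue was not tested, and in whole tissue fewer cells of a type and less RNA per cell cannot be told apart.

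The calls of Nr1d1 and Nr1d2 on day 3 against day 0 held with each of the 10 libraries left out and under all 9 alternative settings. Arntl lost its call without replicate 1 of day 0 (-0.62, adjusted p 0.084) and without replicate 1 (-1.16, 0.0574) or replicate 2 (-1.01, 0.0891) of day 3, and Cry1 without replicate 1 of day 0 (-0.55, 0.0676) or of day 3 (-0.74, 0.0637), all by limma. Per3 lost its call without replicate 2 of day 0 (-0.75, adjusted p 0.164), without either library of day 3 (-1.24 and -0.93, 0.0677 and 0.148) and without either library of day 5 (0.0514 each). Dbp gained one without replicate 1 of day 0 (-1.31, adjusted p 0.0161), and Per2 without replicate 1 or 2 of day 1 (0.0452 and 0.0476). With the term for Xist, 2 members were called, Nr1d1 and Nr1d2. Here that term gives the same differences as leaving out replicate 1 of day 3, so it is not a separate check. Leaving out replicate 1 of day 3 left 2 calls, and leaving out replicate 2 left 3.

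Between day 1 and day 3, 3 of 10 members fell and 0 rose, where 31.1% of all genes were called and 16.6% were called lower. Dbp fell by 1.75 ± 0.39 (SE) on the log2 scale (adjusted p 0.0145, limma), Nr1d2 by 1.31 ± 0.24 (0.00787) and Nr1d1 by 1.27 ± 0.23 (0.00757). Per1 (-0.95), Per2 (-0.56), Cry1 (-0.48), Cry2 (-0.49), Clock (-0.12) and Arntl (-0.09) were not called. Of the marker lists, 8 of 9 fibre genes were lower and 4 of 7 leukocyte and 4 of 4 myocyte genes higher on day 3 than on day 1, and the part of this was not tested. Dbp, the member with the largest fall, went from 14.2 and 18.8 FPKM to 4.89 and 4.72. Per3, at -1.04 ± 0.34, missed the threshold (adjusted p 0.0533), and it passed without either library of day 0 (0.0491 and 0.0494) or of day 10 (0.0296 and 0.029). Dbp lost its call without replicate 2 of day 1 (-1.55, 0.0623) and without replicate 1 or 2 of day 3 (-1.77 and -1.72, 0.0603 and 0.0819). Nr1d2 lost its call without replicate 2 of day 3 (-1.07, 0.0612), which left 1 member called, Nr1d1.

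Day 5 differed from day 3 in the other direction, with 4 of 10 members higher and 0 lower, where 12.7% of all genes were called and 7.23% were called higher. Dbp rose by 1.99 ± 0.39 (SE) on the log2 scale (adjusted p 0.0195, limma), Per3 by 1.97 ± 0.34 (0.0139), Nr1d2 by 1.24 ± 0.24 (0.0194) and Cry2 by 0.93 ± 0.21 (0.0289). Dbp and Per3 were both more than 3 times as high in the lowest library of day 5 as in the highest of day 3. Clock, at -0.61 ± 0.17, missed the threshold (adjusted p 0.0556). The median over the members was 0.68. Of the other members, Nr1d1 (0.76), Per2 (0.59), Cry1 (0.41) and Per1 (0.21) had higher means and Arntl (-0.66) a lower one, and none passed the test. Between the same days 5 of 9 fibre genes were higher, 4 of 7 leukocyte genes and 4 of 4 myocyte genes were lower, and the part of this in the members' values was not tested. The fibre genes summed to 48730 and 49880 FPKM on day 5, the leukocyte genes to 329 and 352 and the myocyte genes to 239 and 176. With the term for Xist 0 members were called. Here that term gives the same differences as leaving out replicate 2 of day 3, so the 2 fits are not separate checks. Leaving out a library of day 3 or day 5 leaves 1 library for that day. Dbp, Per3 and Cry2 lost their calls in each of these fits, and Nr1d2 in all but the fit without replicate 1 of day 3. In the left-out fits that lost a call the differences kept their sign. They ran from 1.70 to 2.27 for Dbp, 1.82 to 2.13 for Per3, 0.80 to 1.07 for Cry2 and 1.00 to 1.39 for Nr1d2.

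Set against day 0, day 5 had 5 of 10 members called, where the share over all genes was 25.5%. Per2 rose by 1.43 ± 0.38 (SE) on the log2 scale (adjusted p 0.0318, limma) and Dbp by 1.31 ± 0.39 (0.0442). Arntl fell by 1.74 ± 0.29 (0.0129), Nr1d1 by 0.77 ± 0.23 (0.046) and Clock by 0.69 ± 0.17 (0.027). Both activators and Nr1d1 were thus lower and Per2 and Dbp higher, and the libraries of the 2 days overlapped for 0 of 10 members, where 70.8% of all genes did not overlap. No member was called without replicate 1 of day 0 or without either library of day 5, or with the term for Xist, which is shared by both day 0 libraries and neither day 5 library. That term is set by the gap between the 2 libraries of day 3, not by any library of day 0 or day 5. With it the SE was wider, and the differences were -1.88 ± 0.55 for Arntl, -0.73 ± 0.32 for Clock and 1.52 ± 0.71 for Per2. They were 1.26 ± 0.73 for Dbp and -1.42 ± 0.29 for Nr1d1 (SE, adjusted p 0.151 to 0.377 over the 5 genes, limma). Without replicate 1 of day 0, Arntl was at -1.27 (adjusted p 0.0692), Clock at -0.52 (0.164), Nr1d1 at -0.84 (0.156), Per2 at 1.04 (0.183) and Dbp at 0.68 (0.197). Besides those 3 libraries, Dbp lost its call without any 1 library of days 1, 3 and 10 (adjusted p 0.052 to 0.0685), Nr1d1 without replicate 2 of day 0 (0.141) or either library of day 10 (0.0613 and 0.0612), and Per2 without either library of day 3 (0.0528 and 0.0529). Nr1d1 also lost its call under quantile normalization (-0.49, adjusted p 0.174, limma), median-ratio scaling (0.0508) and no filter (0.0792), and Dbp under no filter (0.0825), the replicate block (0.0524) and only the groups compared (0.108). Per2 lost its call under no filter (0.0638) and Clock with only the groups compared (0.0614).

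**Figure D2:**
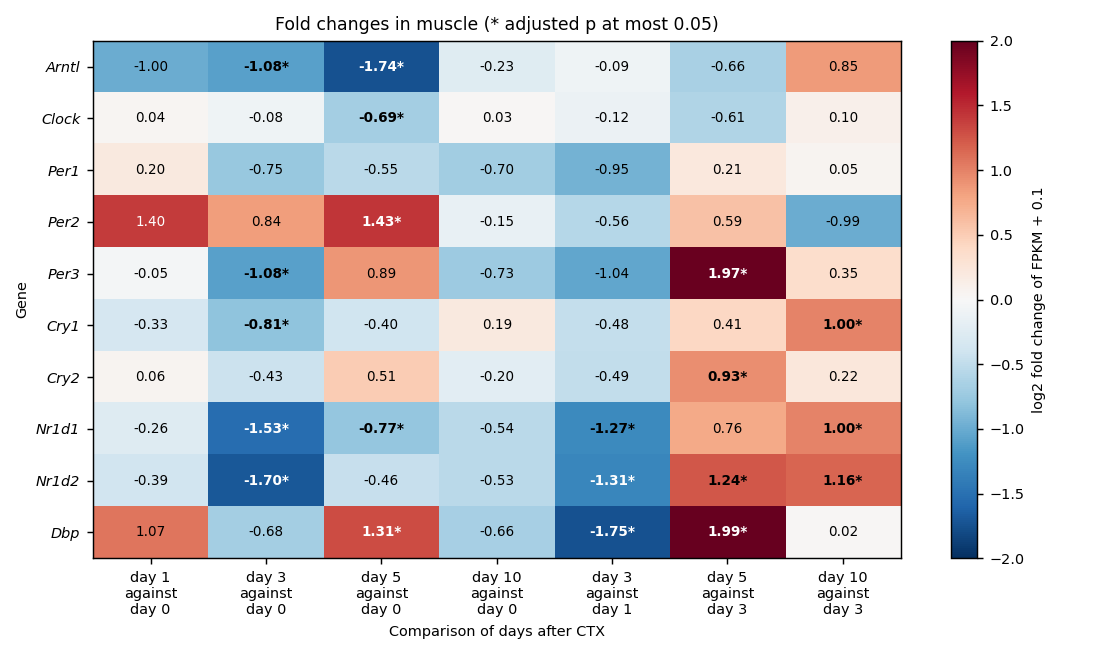
Log2 fold changes of the 10 clock genes (rows) in the 7 comparisons of days (columns), with the colour scale in log2 units of FPKM + 0.1. An asterisk marks an adjusted p of at most 0.05 in limma; the columns against day 1 or day 3 share libraries with the others, and columns of day 1 and day 10 against day 0 hold no asterisk.

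By day 10 no member was called against day 0 (0 of 10), where limma called 1 of 16753 genes, 0.00597%, and 1697 genes had an unadjusted p of 0.05 or below. Nr1d1 alone of the members had such a p, with a difference of -0.54 ± 0.23 (SE) and an adjusted p of 0.493. The libraries of day 10 were below both of day 0 for Per1, Nr1d1 and Nr1d2 and overlapped them for the other 7 genes, where 39.6% of all genes did not overlap and 20.4% were lower without overlap. Against day 3, 3 of 10 members were higher on day 10 and 0 lower, where 37.9% of all genes were called and 19.1% were called higher. Nr1d2 rose by 1.16 ± 0.24 (adjusted p 0.00818, limma), Cry1 by 1.00 ± 0.20 (0.00655) and Nr1d1 by 1.00 ± 0.23 (0.0127). For Dbp the difference was 0.02 ± 0.39 (adjusted p 0.984). All 9 fibre genes were higher, and 7 of 7 leukocyte and 4 of 4 myocyte genes lower, on day 10 than on day 3 (fibre genes summed to 80190 and 61180 FPKM on day 10, leukocyte genes to 48.4 and 210.4), and the part of this was not tested. Cry1 kept its call in all 10 fits with a library left out, whereas Nr1d1 and Nr1d2 lost theirs without replicate 1 of day 10 (0.0694 and 0.0544) and without replicate 2 of day 3 (0.0702 and 0.0588), which left 1 member called each time. Arntl was called without either library of day 0 (0.85, adjusted p 0.0147 and 0.0142) and Per2 without either library of day 1 (-0.99, 0.0322 and 0.034).

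The 22 other genes of the clock that were listed, of which 20 were tested in muscle (all but Rorb and Fbxl21), were counted in the same way. The F test over the 5 days called 6 of 20, against 43.0% of all genes. Against day 0, 0 of 20 were called on day 1, 2 were higher and 10 lower on day 3, 2 were higher and 4 lower on day 5, and 0 were called on day 10, where 6.00%, 48.8%, 25.5% and 0.00597% of all genes were called in either direction. Their median was -0.61 on day 3. Among those called on day 3, Rora, a nuclear receptor that activates the Arntl gene, fell by 1.68 ± 0.25 (SE) on the log2 scale (adjusted p 0.00147, limma).

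Tef and Hlf, which bind D-boxes as DBP does, fell by 1.14 ± 0.17 (adjusted p 0.00161, limma) and 1.65 ± 0.51 (0.0292) on day 3, and Nfil3, which competes for D-boxes, fell by 0.92 ± 0.30 (0.0369). Hlf was near the floor, at 0.745 and 0.404 FPKM on day 0 and 0.197 and 0.0444 on day 3. Tef returned from 12.6 and 11.5 FPKM on day 3 to 26.0 and 24.4 on day 5 (rise of 1.06 ± 0.17, adjusted p 0.0116). Bhlhe40, an E-box repressor, fell by 1.50 ± 0.44 (0.0247), while Npas2, a relative of Clock, rose by 1.06 ± 0.35 (0.0393) from 0.503 and 0.297 to 1.06 and 0.794 FPKM. Bhlhe41 and Ciart were not called on that day. Of 6 genes listed because they cycle in many tissues, of which Usp2, Ciart and Tef are also among the 22, 1 was higher and 3 lower on day 3, with Usp2 lower by 0.99 ± 0.30 (0.0272), Tsc22d3 by 0.83 ± 0.28 (0.0392) and Tspan4 higher by 1.36 ± 0.23 (0.00254).

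Across the 10 muscle libraries, the genes whose log2 values ran most like Arntl were Gm10382 (Pearson r 0.972), Txndc15, Hnrnpa2b1, Ufsp2 and Ubl5, and those most like Dbp were Gm43797 (r 0.923), Per3 (r 0.862), Hivep1, Gm17110 and E330011M16Rik. These are descriptions over libraries that share days, and Per3 is the only other member among them. As one value per library, log2 Dbp minus log2 Arntl was -0.22 and 1.98 on day 0, 2.88 and 3.01 on day 1, 1.24 and 1.33 on day 3, 4.33 and 3.53 on day 5, then 0.42 and 0.49 on day 10. The 2 libraries were at most 0.80 apart on days 1, 3, 5 and 10, and further apart on day 0 than on any of those days. On day 0 replicate 1 minus replicate 2 was 0.93 for Arntl and -1.26 for Dbp, in size at or above the gap of 87.9% and 92.6% of genes.

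**Figure D3:**
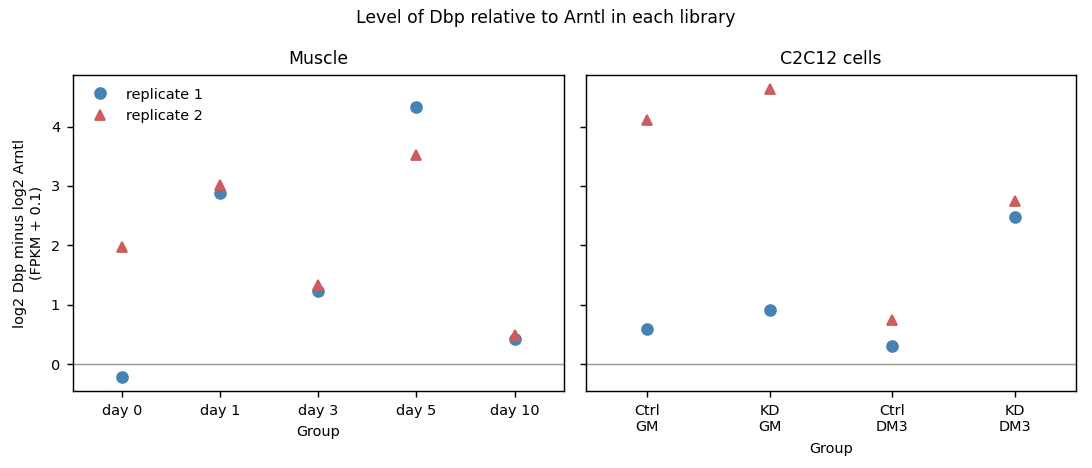
Log2 of Dbp minus log2 of Arntl (FPKM + 0.1, vertical axis) in each muscle library by day (left) and each C2C12 library by group (right; KD, Mettl3 knockdown). Circles are replicate 1 and triangles replicate 2; the 2 libraries lie far apart on day 0 and in both GM groups and close together elsewhere.

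In C2C12 cells the largest differences in clock genes were between the 2 libraries of the same group. In GM, Dbp was at 4.73 FPKM in replicate 1 of the Ctrl cells and at 21.0 in replicate 2, and at 5.23 and 24.5 in the Cas9M3 cells. Nr1d1 was at 4.99 and 15.1 FPKM in Ctrl GM and at 6.95 and 37.9 in Cas9M3 GM, and Per1 ran the other way, at 19.4 and 3.02 in Ctrl GM and at 17.4 and 4.79 in Cas9M3 GM. Arntl was at 3.10 and 1.11 FPKM in Ctrl GM and at 2.75 and 0.890 in Cas9M3 GM. Clock was at 9.45 and 3.11 FPKM in Ctrl GM and at 7.88 and 5.90 in Cas9M3 GM, Per2 at 4.98 and 2.65 and at 3.64 and 3.08, and Per3 at 1.08 and 2.78 and at 1.3 and 3.46. Cry1 was at 5.75 and 4.34 and at 5.29 and 3.24 FPKM, Cry2 at 2.57 and 1.56 and at 2.97 and 2.23, and Nr1d2 at 5.93 and 11.9 and at 9.57 and 24. Replicate 1 of either line was thus low in Dbp and Nr1d1 and high in Arntl and Per1, and replicate 2 was the reverse.

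The gap between replicate 1 and replicate 2 in GM had the same sign in both lines for all 10 members, as it had for 76.3% of all genes. It was positive for Arntl, Clock, Per1, Per2, Cry1 and Cry2 and negative for Per3, Nr1d1, Nr1d2 and Dbp. In log2 units it was 2.65 and 1.84 for Per1 and -2.13 and -2.21 for Dbp (Ctrl, then Cas9M3), in size at or above the gap of 94.8% and 93.7% of genes for Per1 and of 91.2% and 95.3% for Dbp. The median size of the gap over the 10 members was 1.34 and 1.33, against 0.66 and 0.36 over all genes. On DM3 the members' median was 0.24 and 0.22, against 0.203 and 0.195 over all genes, and no member's gap exceeded 0.41 there. The gaps are given as a description, since replicate number is no condition of the study, and no test was made of them.

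**Figure D4:**
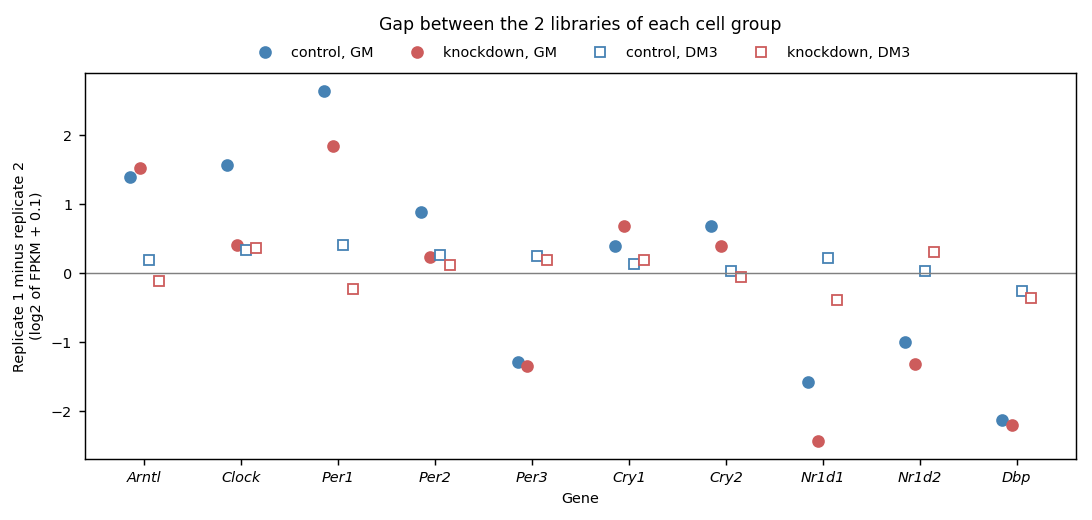
Replicate 1 minus replicate 2 on the log2 scale of FPKM + 0.1 (vertical axis) for each clock gene (horizontal axis) in the 4 cell groups. Filled circles are GM and open squares DM3, in blue for control and red for knockdown; the GM gaps of both lines fall on the same side of 0 for all 10 genes, and the DM3 gaps stay within 0.41 of 0.

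Genes known to respond to glucocorticoids also differed between these libraries. Of 10 listed, which include Per1 and also Tsc22d3 of the cycling genes, 10 were higher in replicate 1 of Ctrl GM and 9 in replicate 1 of Cas9M3 GM (all but Dusp1), with median gaps of 2.48 and 2.56 on the log2 scale against 0.01 and -0.02 over all genes. Fkbp5, a co-chaperone of the glucocorticoid receptor, was at 48.7 and 2.54 FPKM in Ctrl GM and at 40.4 and 2.86 in Cas9M3 GM, and Tsc22d3 (GILZ) at 89.5 and 8.16 and at 87.5 and 7.56. Zbtb16 was at 1.94 and 0.780 FPKM in the replicate 1 libraries and listed at 0 in both replicate 2 libraries. On DM3 the list was split, with 6 and 5 of 10 higher in replicate 1. A split was also seen in muscle on day 1, where 8 of 10 were higher in replicate 2 (median gap -0.70, against 0.016 over all genes). So were 6 of the 6 cycling genes (median gap -0.66). On days 0 and 10, 8 of 10 of the glucocorticoid list were higher in replicate 1 (median gaps 0.09 and 0.32). On days 3 and 5, 7 and 6 of 10 were higher in replicate 2 (median gaps -0.20 and -0.17). The cycling genes were higher in replicate 1 for 2 of 6 on day 0, 3 of 6 on day 3, 6 of 6 on day 5 and 5 of 6 on day 10. Usp2, a deubiquitinase whose RNA cycles, was at 1.63 and 0.193 FPKM in Ctrl GM and 1.59 and 0.102 in Cas9M3 GM. The replicate 2 libraries in GM also had less of 4 myocyte genes (summed FPKM 5.12 against 20.1 in Ctrl, 0.919 against 26.0 in Cas9M3) and fewer reads, and the part of any of these in the gap was not tested.

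The other clock genes as a list did not stand apart by this measure in Ctrl GM, where the median size of the gap over the 18 tested was 0.50, below the 0.66 of all genes, while in Cas9M3 GM it was 0.50 against 0.36. Single genes of the list differed between the GM libraries of a line. Nfil3 was at 49.1 and 18.3 FPKM in Ctrl GM and at 66.0 and 20.1 in Cas9M3 GM, and Rora at 0.655 and 0.238 and at 1.73 and 0.133. Tef was at 16.1 and 29.8 and at 17.9 and 31.2, Bhlhe41 at 5.72 and 12.6 and at 4.85 and 11.1, and Ciart, a repressor of the BMAL1 pair, at 1.29 and 2.66 and at 1.63 and 4.72. Nfil3 and Rora were therefore on the side of Arntl, and Tef, Bhlhe41 and Ciart on the side of Dbp. Bhlhe40 hardly differed (29.9 and 35.4, 30.7 and 32.5), and Npas2 and Hlf were too low to be tested in cells.

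**Figure D5:**
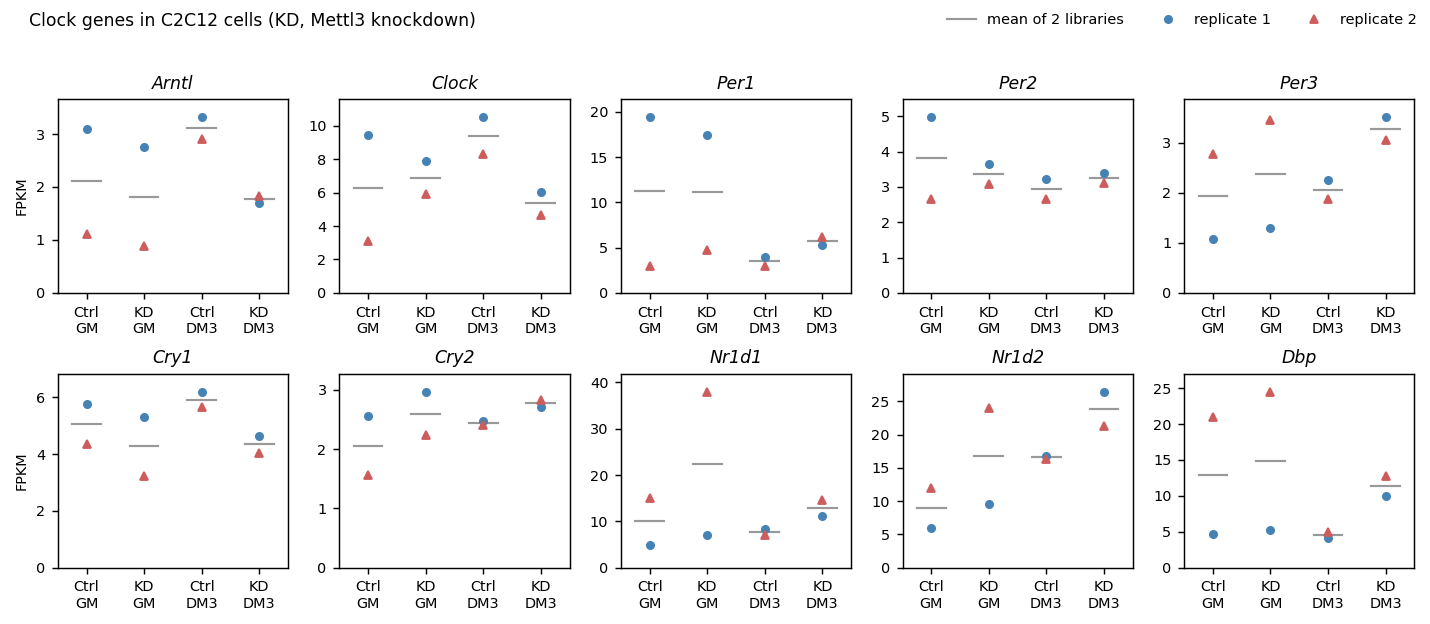
FPKM of the 10 clock genes (vertical axes, starting at 0) in control (Ctrl) and Mettl3 knockdown (KD) C2C12 cells in GM and on DM3. Circles are replicate 1, triangles replicate 2 and the grey bars the mean of the 2 libraries; the replicates separate in GM, above all for Per1, Nr1d1 and Dbp, and lie close together on DM3.

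Against this spread, no clock gene was called between cell groups. The F test over the 4 groups called 0 of 10 members, where 2.34% of all genes were called, with adjusted p from 0.321 (Nr1d2) to 0.88 (Per2). In GM, where the comparison asks what loss of Mettl3 does to proliferating cells, 0 of 10 members were called, 0% of all genes were called and 1244 genes had an unadjusted p of 0.05 or below. All 10 members overlapped between the lines there, where 29.4% of all genes did not. The differences were 0.90 for Nr1d1, 0.84 for Nr1d2, 0.35 for Cry2, 0.32 for Clock, 0.27 for Per3, 0.25 for Per1, 0.18 for Dbp, -0.12 for Per2, -0.23 for Arntl and -0.26 for Cry1.

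On DM3, Dbp was at 4.11 and 4.94 FPKM in Ctrl and at 9.94 and 12.8 in Cas9M3 cells, and Nr1d1 at 8.27 and 7.07 against 11.2 and 14.7. Arntl was at 3.32 and 2.90 against 1.70 and 1.84 FPKM, and Clock at 10.5 and 8.30 against 6.06 and 4.69. The knockdown libraries were thus above both controls for Dbp and Nr1d1 and below both for Arntl and Clock. Nr1d2 was at 16.8 and 16.4 against 26.4 and 21.3, Per3 at 2.25 and 1.88 against 3.51 and 3.05, and Per1 at 4.01 and 3.0 against 5.27 and 6.20 FPKM. Cry1 was at 6.19 and 5.65 against 4.63 and 4.06, Cry2 at 2.47 and 2.40 against 2.71 and 2.83, and Per2 at 3.21 and 2.65 against 3.41 and 3.12 FPKM. Of the 10 members, 6 were higher in the knockdown without overlap, 3 lower without overlap (Arntl, Clock and Cry1) and Per2 overlapped, where 63.5% of all genes did not overlap.

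With the spread estimated over all 8 cell libraries, limma called 0 of these 10 differences on DM3, where 1.98% of all genes were called. The difference was 1.31 ± 0.88 (SE) on the log2 scale for Dbp (adjusted p 0.55), 0.74 ± 0.84 for Nr1d1 (0.75), -0.80 ± 0.50 for Clock (0.513) and -0.78 ± 0.62 for Arntl (0.618). When the fit held the 4 DM3 libraries alone, 4 members were called, where 21.6% of the 13079 genes then tested were called, namely Dbp (± 0.18, adjusted p 0.0101), Arntl (± 0.16, 0.0277), Nr1d1 (± 0.18, 0.0428) and Clock (± 0.19, 0.0436). With a term for the replicate number within each medium, chosen after the data had been seen, Dbp was called (± 0.14, adjusted p 0.0117), where 10.8% of all genes were. The size of the difference did not change between these fits, only the spread set against it. The 4 myocyte genes summed to 335 and 296 FPKM in Ctrl and 8.92 and 6.19 in Cas9M3 cells on DM3, and the part of this difference in cell state was not tested. The hour of collection is not given for the cells either. In GM and on DM3, the knockdown and the time of sampling therefore cannot be told apart. The difference between the effects of the knockdown on DM3 and in GM was called for 0 of 10 members and for 0% of all genes (1198 with an unadjusted p of 0.05 or below), and for Dbp it was 1.13 ± 1.25 (adjusted p 0.83).

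DM3 was also compared with GM within each line. The 2 media differ in serum and in days of culture, so differentiation, serum and the time of sampling cannot be told apart here. The 4 myocyte genes summed to 20.1 and 5.12 FPKM in Ctrl GM and 335 and 296 on DM3. In Cas9M3 cells they summed to 26.0 and 0.919 in GM and 8.92 and 6.19 on DM3. In Ctrl cells 0 of 10 members were called, where 1.14% of all genes were called, and in Cas9M3 cells 0 of 10, where 0.0289% of all genes were. The means of Dbp (-1.13 ± 0.88, SE), Per1 (-1.13 ± 0.93) and Nr1d2 (0.97 ± 0.49) differed most in Ctrl cells, with adjusted p of 0.497, 0.518 and 0.34 in limma. Clock (0.77), Arntl (0.70), Per2 (-0.31), Cry2 (0.27), Cry1 (0.24), Per3 (0.23) and Nr1d1 (-0.18) differed less. In Cas9M3 cells the differences ran from -0.67 (Per1) to 0.64 (Nr1d2). Nr1d2 was the only member without overlap in Ctrl cells, at 5.93 and 11.9 FPKM in GM and 16.8 and 16.4 on DM3, where 47.2% of all genes did not overlap. Dbp on DM3 was near replicate 1 of GM (4.73 FPKM) and far from replicate 2 (21.0 FPKM) in Ctrl cells, and between the 2 GM libraries (5.23 and 24.5) in Cas9M3 cells. In the added fit with the replicate number within each medium, Dbp (± 0.14, adjusted p 0.0152, limma) and Nr1d2 (± 0.16, 0.0287) were called in Ctrl cells, with 12.8% of all genes called, and no member in Cas9M3 cells. That fit leaves the gap between replicates out of the spread, so its p does not measure how far the GM libraries of a line lie apart. Without replicate 1 of Ctrl GM, in the fit with no block, Dbp was at -2.20 and Nr1d2 at 0.47, and without replicate 2 of Ctrl GM at -0.07 and 1.47, none of them called. Without replicate 1 of Ctrl GM, Clock was called in Ctrl cells at 1.56 (adjusted p 0.0249), and without replicate 2 of Ctrl GM it was at -0.01 (0.987).

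Over the 8 cell libraries, the genes most like Arntl were Rnf185 (Pearson r 0.989), Stom, Chd7, Gosr1 and Gpm6b, and those most like Dbp were Tbcc (r 0.976), Cd151, Gprc5a, Hspb11 and Ssbp3. Dbp was the gene that ran most opposite to Arntl (r -0.986) among genes with a mean of at least 1 FPKM. Of the members, Cry1 (r 0.929) ran with Arntl and Nr1d1 (r -0.913) against it, and these values rest on libraries that share a medium and a replicate number. Log2 Dbp minus log2 Arntl was 0.59 and 4.12 in Ctrl GM, 0.91 and 4.63 in Cas9M3 GM, 0.30 and 0.75 in Ctrl DM3 and 2.48 and 2.74 in Cas9M3 DM3. The 2 DM3 groups were thus further apart than the libraries within either. Both Cas9M3 libraries and replicate 2 of the Ctrl cells on DM3 lay between the 2 GM libraries of their own line, and replicate 1 of Ctrl DM3 lay below them.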

How the data were processed

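FPKM values were deposited by the authors, who used HISAT2 (GRCm38), featureCounts and the fpkm function of DESeq2, in 1 table for 10 muscle libraries and 1 for 8 cell libraries, each scaled by itself. Whether the counting used strand is not stated. Groups and replicate numbers were taken from the labels. The deposited FPKM plus 0.1 was taken to the log2 scale for genes that reached 0.5 FPKM in 2 or more libraries, and fitted with limma 3.58.1 (eBayes, trend allowed) under R 4.3.3, 1 fit per table, an F test over the groups, and Benjamini-Hochberg adjustment over all genes tested. The fit was also run on simulated data with independent noise and the same spread in every group. That leaves out the wider replicate gaps of the GM libraries, so it is no test of the cell results. The clock genes and the gene lists were chosen with earlier results of these data known. All 10 members are given with their levels in every group, and in a comparison those called are named, with fixed examples from the lists (a listed gene that enters the counts is not reported here by itself), and the 5 genes most like Arntl and Dbp with a mean of at least 1 FPKM.

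Depth was read from the steps of low values with exon lengths of GENCODE M21, where 96.7% to 98.9% of values under 30 reads were whole multiples of 1 read within 0.05, and was used in no test. Figures were drawn with matplotlib 3.10.9. Replicate 1 minus replicate 2 over all genes correlated between cell groups (r 0.278 to 0.68 over 6 pairs of groups) and not between all days of muscle (-0.0187 to 0.211 over 10 pairs). The numbers therefore pair the cell libraries by this measure, while no source gives a reason. All replicate 2 cell libraries were also shallower than all replicate 1 cell libraries, and the part of depth in this correlation was not tested. Alternatives were pseudocounts of 1 and 0.01, filters of 0 and 1 FPKM, quantile normalization, median-ratio scaling, the replicate number as a block, only the groups compared, a term for libraries with Xist at 1 FPKM or above, and each library left out. A block of replicate number within medium was added after the data had been seen. Mettl3 overexpression libraries were not analysed here.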

Additional observations from a re-analysis of the deposited data

How the results depend on the processing

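The differences called in some fit kept their sign under every alternative run, except Clock on DM3 against GM in Ctrl cells, at 1.56 without replicate 1 of Ctrl GM and -0.01 without replicate 2. In muscle, the count of members called on day 3 against day 0 was 5, and 2 with the term for Xist. On day 5 against day 0 it was 5, with 2 under no filter, 3 with only the groups compared and 0 with the term for Xist. On day 3 against day 1 it was 3, with 5 under quantile normalization and 1 with the term for Xist, on day 5 against day 3 it was 4, with 0 under that term, on day 10 against day 3 it was 3, with 5 for only the groups compared, and over any of the 5 days it was 9, with 2 under the term for Xist. With 1 library left out, these counts ran from 2 to 6 (day 3 against day 0), 0 to 4 (day 5 against day 0), 1 to 4 (day 3 against day 1), 0 to 4 (day 5 against day 3), 1 to 4 (day 10 against day 3) and 3 to 8 (any day), and a lone library of a day is then assumed to vary like the other days. Both day 0 and both day 10 libraries and 1 of day 3 express Xist, so that this term leaves little to compare with day 5. The term is set by the gap between the 2 day 3 libraries. In a comparison with day 3 it gives the same difference as leaving out 1 of them, so these fits are not separate checks. With only the groups compared, 24.6% of all genes were called on day 5 against day 0 and 37% on day 10 against day 3.

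In cells, the knockdown on DM3 gave 0 members, 4 with only the groups compared and 1 with the replicate block within medium. Of all genes, 1.98%, 21.6% and 10.8% were called in these 3 fits. DM3 against GM in Ctrl cells gave 0 members and 2 with that block, and any of the 4 cell groups 0 and 2, and both gave 0 to 1 with 1 library left out. For DM3 against GM in Ctrl cells, 1.14% of all genes were called in the main fit and 12.8% with the block within medium. The plain replicate block gave 0 members in every cell comparison. In muscle the replicate gaps over all genes correlated at no more than 0.211 between days. There the replicate block gave 5 members on day 3, 4 on day 5 and 0 on days 1 and 10 against day 0. It gave 3 on day 3 against day 1, 5 on day 5 against day 3 and 4 on day 10 against day 3. The cause of these shifts was not tested. The share of all genes called was taken only for the main fit, only the groups compared and the block within medium. Under the other alternatives, a shift in the members cannot be told apart from a shift over all genes. Other counts stayed within 1.5 times the main count. Depth limits Per2 most, at 31 reads in its lowest muscle library.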
